A study of Bos taurus with 34 samples.

Results

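The fluid of the oviduct and uterus is made by an epithelium that moves chloride, bicarbonate, sodium and protons, and the genes described here code for the carriers, channels and enzymes of that traffic. They were chosen by name, as the genes whose symbols start with SLC4A, SLC9A, SLC12A or SLC26A, prefixes of solute carrier families, together with CFTR, ANO1, CLCA1, CLCA2, the carbonic anhydrases CA2, CA3, CA4, CA9 and CA12, and the epithelial sodium channel subunits SCNN1A, SCNN1B and SCNN1G. Of 52 such gene symbols in the RefSeq annotation, 40 had at least 1 feature in the count table, out of 21554 genes matched in all. Where a gene had several features, the one with most counts on average was taken. The other 12, among them SLC4A2, SLC4A4, SLC4A10, SLC12A1 and SLC26A2, had no feature in the table and are not analysed here.

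RNA was sequenced from the lining of the reproductive tract of 5 adult nulliparous Holstein heifers, all given the same 5-day CIDR-Synch treatment, which times ovulation with a progesterone insert, and slaughtered on day 2 after it. The ampulla, the part of the oviduct near the ovary, and the upper and mid uterine horn were sampled both on the side of ovulation (ipsilateral) and on the other (contralateral). Each heifer also gave 1 uterine body sample, so there were 7 site groups. All had 5 heifers but 1, the upper horn on the ovulatory side, which had 4, so that 10 ampulla libraries were set against 24 uterine ones. All animals had the same treatment, and there was no untreated group or other day of the cycle.

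Bicarbonate secretion rests on a few cooperating steps. Carbonic anhydrases turn carbon dioxide and water into bicarbonate and protons, sodium-bicarbonate cotransporters and sodium-proton exchangers on the basal side keep the cell alkaline, and anion exchangers and CFTR let bicarbonate and chloride out into the lumen. The epithelial sodium channel and apical sodium-proton exchangers work the other way, drawing sodium and water back or acidifying the fluid. In the female tract bicarbonate is known as a trigger of sperm capacitation, which acts through the soluble adenylyl cyclase of sperm.

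Library totals ran from 11619486 to 30412782 counts, so that 1 count equalled 0.0293 to 0.0966 CPM, the unit of all levels given here, a count scaled to the size of its library. Most features of the table are single transcripts, and genes with many transcripts can lose reads shared between them, so the CPM of different genes are not compared. Whether transcripts without a feature differ in the same way between sites was not tested. Between 18 and 25 of the 40 genes had counts in each ampulla library and between 14 and 31 in each uterine library. In total, 12 genes had under 30 counts over all libraries, and 21 passed the filter on low counts and were tested.

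The tissue labels held against marker genes. Summed CPM of 5 oviduct secretory markers was 1158 to 4425 in the ampulla libraries and 0.888 to 82.5 in 23 of the uterine libraries. The exception was the contralateral mid horn of heifer 10882, with 1287, and several of the results that lean on this library are given with and without it. It is 1 of 3 doubted libraries, all contralateral, the others being heifer 11033's upper horn and heifer 11070's ampulla. Marker levels differed with the region. The ampulla libraries held 5550 to 7406 CPM of 8 general epithelial markers, against 933 to 4022 in the uterus, and 38.0 to 102 CPM of 9 stromal markers, against 36122 to 84194. Endothelial markers summed to 3.73 to 11.3 CPM in the ampulla and 484 to 1089 in the uterus, and leukocyte markers to 15.9 to 44.9 and 99.7 to 343 CPM. Of the tested markers, 8 of 8 stromal, 8 of 8 endothelial, 7 of 7 smooth muscle and 5 of 5 leukocyte genes were lower in the ampulla, while 7 of 8 ciliated cell genes and 5 of 8 general epithelial genes were higher, with 2 general epithelial genes lower. Of 3 endometrial gland genes 2 were higher, and of 2 erythroid genes 1 was higher and 1 lower. Ciliated cell markers summed to 1355 to 1891 CPM in the ampulla and 84.2 to 491 CPM in the uterus. These shifts go with every difference between ampulla and uterus given below, and their part in the results was not tested. In such bulk samples, fewer cells of a type and less RNA per cell cannot be told apart.

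The first question was how the oviduct lining differs from the uterine lining in these genes, with the upper horn, mid horn and body given equal weight as endometrium. CA2, SLC9A3, SLC26A5, SCNN1G and CLCA2 were higher in the ampulla. Among those lower were CFTR, SLC26A6, CA4, SLC9A9, SLC12A9 and 3 members of the SLC4 family, SLC4A3, SLC4A5 and SLC4A11. With edgeR's quasi-likelihood test and Benjamini-Hochberg adjustment, 14 of the 21 tested genes were called at an adjusted p under 0.05, 5 higher and 9 lower, and 13 of them differed at least 2-fold. That is 66.7% of the genes tested, near the background of 64.9% of all 17241 features called in this comparison, with 29.4% higher and 35.6% lower. The share of all features called at 2-fold or more was not computed, so the count of 13 has no background. The median log2 fold change of the 21 genes was -0.84, against -0.18 over all features. CA4, which had 0 ampulla counts, lies below this median both by its fitted value and by its bound, so the choice between them cannot move the median.

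**Figure D1:**
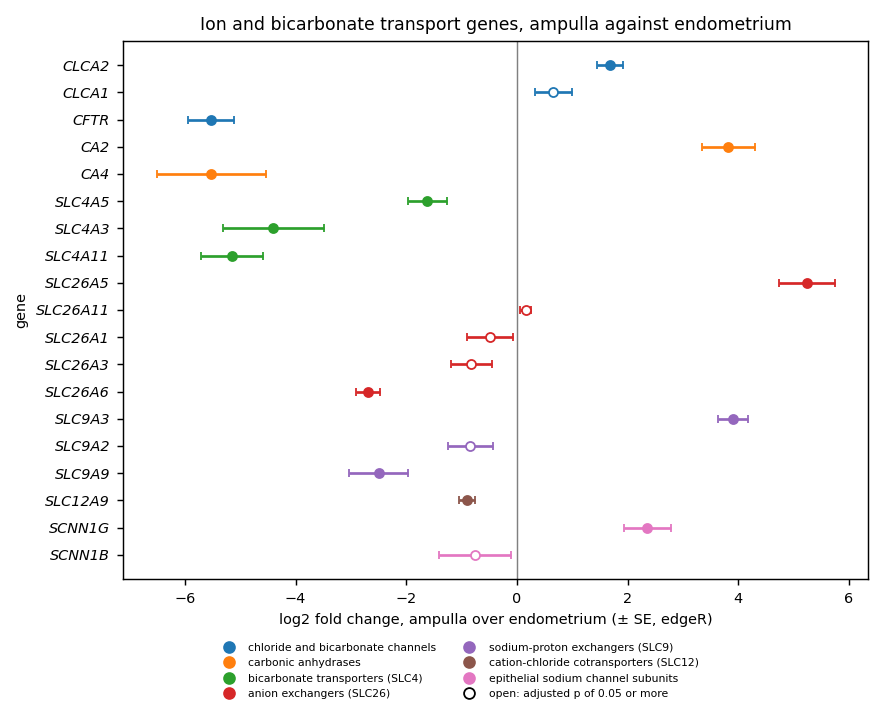
Log2 fold change of 19 tested genes between ampulla and endometrium, with bars of 1 SE from edgeR, by transport class; filled points passed an adjusted p under 0.05. CA2, SLC9A3, SLC26A5, SCNN1G and CLCA2 lie to the right of 0, and the 8 filled points to the left run from CFTR at -5.53 to SLC12A9 at -0.90, with the fitted value of CA4 resting on 0 ampulla counts.

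Among the channels, CFTR, the anion channel opened by cyclic AMP that passes chloride and bicarbonate, had a lowest, median and highest level of 0.0525, 0.499 and 0.983 CPM in the ampulla, against 6.88, 25.5 and 109 CPM in the uterus. The ranges did not overlap. This gave a log2 fold change of -5.53 ± 0.42 (SE, edgeR adjusted p 6.55e-13), lower in 5 of 5 heifers, with means of 0.554 ± 0.230 CPM in the ampulla, against 31.1 ± 24.7 CPM in the endometrium (SD over 5 heifers, here and for the regional means that follow). CLCA2, of a family of secreted or membrane-bound proteins that modulate calcium-activated chloride currents, went the other way, with 1.29, 2.18 and 3.03 CPM in the ampulla and 0.206, 0.623 and 1.59 CPM in the uterus. Its log2 fold change was 1.68 ± 0.23 (adjusted p 1.34e-07), and only 1 uterine library reached the ampulla's range. Its neighbour on the chromosome, CLCA1, was not called, at 0.66 ± 0.34 (adjusted p 0.0861), although its mean was higher in the ampulla of 5 of 5 heifers. ANO1, the calcium-activated chloride channel itself, was too sparse to test, with 14 counts in the ampulla libraries and 2 in the uterine ones.

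The 2 tested carbonic anhydrases moved in opposite directions. CA2, the fast cytosolic enzyme, had 147, 417 and 568 CPM as lowest, median and highest ampulla level and 4.12, 28.2 and 155 CPM in the uterus. All but 1 ampulla library lay above every uterine one, the exception being the contralateral ampulla of heifer 11070. The log2 fold change was 3.82 ± 0.48 (edgeR adjusted p 1.43e-07), with regional means of 394 ± 116 and 41.7 ± 23.6 CPM. CA2 stood at 146 CPM in the contralateral mid horn of heifer 10882, next to 4.12 to 9.45 CPM in that heifer's other 4 uterine libraries. Without that library the log2 fold change was 4.11 and without the 3 doubted libraries 4.28. CA4, which is anchored to the outer face of the cell membrane, had 0 counts in all 10 ampulla libraries and 140 counts in 21 of 24 uterine ones. Against a floor of 3 counts over the ampulla libraries it was at least 15.7-fold lower there (adjusted p 3.50e-05), at an endometrial level of only 0.300 ± 0.147 CPM. CA12, another membrane-bound enzyme, had 1 count in the ampulla and 23 in the uterus, a ratio of endometrium over ampulla of 7.72 with an exact 95% counting interval of 1.25 to 318. CA3 had 0 and 7 counts and CA9 1 and 0, too few for a fold. Floors and intervals cover counting error only.

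The 3 tested members of the SLC4 family, out of 6 with a feature, were all called lower in the ampulla. Of all features, 35.6% were called lower. SLC4A11 belongs to the family by sequence but is known to carry protons or hydroxide and water in place of bicarbonate. It had counts in 2 of 10 ampulla libraries, both of heifer 11070, at 0.130 and 0.239 CPM, against 0.251, 1.10 and 2.78 CPM as lowest, median and highest uterine level. No ampulla library reached the uterine range. Its log2 fold change was -5.14 ± 0.56 (edgeR adjusted p 1.60e-09), and -7.62 without heifer 11070, a fit against 0 ampulla counts that is no bound on the fold. SLC4A3, an exchanger of chloride for bicarbonate, averaged 0.0579 ± 0.0460 CPM in the ampulla, against 0.792 ± 0.381 CPM in the endometrium, giving -4.40 ± 0.91 (adjusted p 0.000134) that rests on 11 ampulla counts. SLC4A5, an electrogenic sodium-bicarbonate cotransporter, had 0.157, 0.859 and 1.76 CPM in the ampulla against 0, 2.24 and 5.01 CPM in the uterus. Its log2 fold change was -1.62 ± 0.35 (adjusted p 0.000171), with overlapping ranges. The members SLC4A7 and SLC4A8, both sodium-coupled bicarbonate carriers, were not tested. SLC4A7 had 31 counts in the ampulla and 70 in the uterus, at 0.155 ± 0.109 and 0.123 ± 0.0445 CPM. Its mean was higher in the ampulla of 3 heifers and lower in 2. SLC4A8 had 61 and 77 counts, at 0.318 ± 0.181 and 0.173 ± 0.128 CPM, higher in the ampulla of 4 heifers and lower in 1. SLC4A1, the anion exchanger of red cells, had 0 and 3 counts.

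Of 5 tested SLC26 anion exchangers, 1 was higher, 1 lower and 3 were not called. SLC26A5, prestin, known as the motor protein of outer hair cells, had 0.300, 1.63 and 2.42 CPM in the ampulla. In the uterus it had 0, 0 and 0.232 CPM and counts in only 11 of 24 libraries, so the ranges did not overlap. The log2 fold change was 5.24 ± 0.50 (edgeR adjusted p 8.04e-11) and rested on 286 ampulla and 27 uterine counts. SLC26A6, which exchanges chloride for bicarbonate or oxalate at apical membranes, had 1.97, 4.77 and 6.53 CPM in the ampulla and 12.0, 23.8 and 62.4 CPM in the uterus, again without overlap. It was lower in the ampulla of 5 of 5 heifers, with a log2 fold change of -2.69 ± 0.22 (adjusted p 2.11e-12). SLC26A11, reported as a sulphate or chloride carrier in other mammals, had nearly level means of 107 ± 13.6 CPM in the ampulla, against 95.1 ± 11.5 CPM in the endometrium (0.16 ± 0.10, adjusted p 0.148). SLC26A3, the chloride-bicarbonate exchanger of the gut, stood at -0.82 ± 0.37 and just missed the threshold (adjusted p 0.0515, with 0.0162 to 0.145 over 12 alternatives). SLC26A1, a sulphate carrier, gave -0.49 ± 0.42 (adjusted p 0.308).

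The other 4 SLC26 genes were below the filter. SLC26A4, pendrin, had 37 counts in the ampulla and 84 in the uterus, at 0.238 ± 0.204 and 0.168 ± 0.158 CPM. SLC26A9, an apical chloride channel, had 1 ampulla count and 89 uterine ones in 20 of 24 libraries, a ratio of endometrium over ampulla of 29.9 with a counting interval of 5.22 to 1193. SLC26A7 had 0 and 26 counts, at least 2.91-fold lower in the ampulla, and SLC26A8, known from sperm, had 0 and 9. When all features of a gene were summed, SLC26A9 became testable and was called, at -4.58 ± 0.88 (edgeR adjusted p 5.54e-05).

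The sodium-proton exchangers split by member. SLC9A3, the exchanger of apical brush borders, had 4.35, 5.83 and 8.21 CPM as lowest, median and highest ampulla level against 0.0909, 0.361 and 1.84 CPM in the uterus, with no overlap. Its log2 fold change of 3.90 ± 0.27 had the lowest adjusted p of the 21 genes (6.99e-14). The contralateral mid horn of heifer 10882 stood at 1.60 CPM, and the log2 fold change without it was 3.97. SLC9A9, an exchanger of endosomes, went the other way, at -2.50 ± 0.53 (adjusted p 0.000119), from 11 ampulla and 203 uterine counts. SLC9A2, another apical exchanger, was not called at -0.84 ± 0.40 (adjusted p 0.0643, with 0.0149 to 0.279 over 12 alternatives). SLC9A5 had 0 counts in the ampulla and 105 in 19 of 24 uterine libraries, at least 11.7-fold lower, and was called when its features were summed (edgeR adjusted p 0.000117). SLC9A4, SLC9A7 and SLC9A8 had at most 56 counts in all.

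Among the cation-chloride cotransporters, SLC12A9, an orphan member, averaged 45.1 ± 12.3 CPM in the ampulla, against 86.0 ± 22.7 CPM in the endometrium, lower in 5 of 5 heifers with a log2 fold change of -0.90 ± 0.15 (edgeR adjusted p 7.57e-06). SLC12A2, which loads secretory cells with chloride, had 5 counts in all and SLC12A7 had 2, so no statement on them is possible from these counts.

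Of the sodium channel subunits, SCNN1G was higher in the ampulla and SCNN1B was not called, although these genes lie next to each other on the chromosome in the RefSeq gene order. SCNN1G had 0.431, 4.21 and 11.1 CPM as lowest, median and highest level in the ampulla and 0, 1.01 and 3.35 CPM in the uterus, a log2 fold change of 2.36 ± 0.43 (edgeR adjusted p 2.07e-05). It was higher in 4 of 5 heifers. The exception was heifer 11110, with 0.431 CPM in the ipsilateral and 0.646 CPM in the contralateral ampulla, and without it the log2 fold change was 2.75. SCNN1B had -0.76 ± 0.65 (adjusted p 0.308), with 2 heifers higher and 3 lower in the ampulla, and was called only without heifer 10882, at -1.84 (adjusted p 0.0303). The ampulla of heifer 11110 had 0 counts of SCNN1B on both sides. SCNN1A, the subunit needed for a working channel, was not tested, with 56 counts in the ampulla and 80 in the uterus, at 0.289 ± 0.0934 and 0.150 ± 0.0303 CPM.

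The ranges of ampulla and uterine libraries were fully apart for 5 of the 21 tested genes, CFTR, SLC4A11, SLC26A5, SLC26A6 and SLC9A3. Over all features tested this held for 11.7%.

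**Figure D2:**
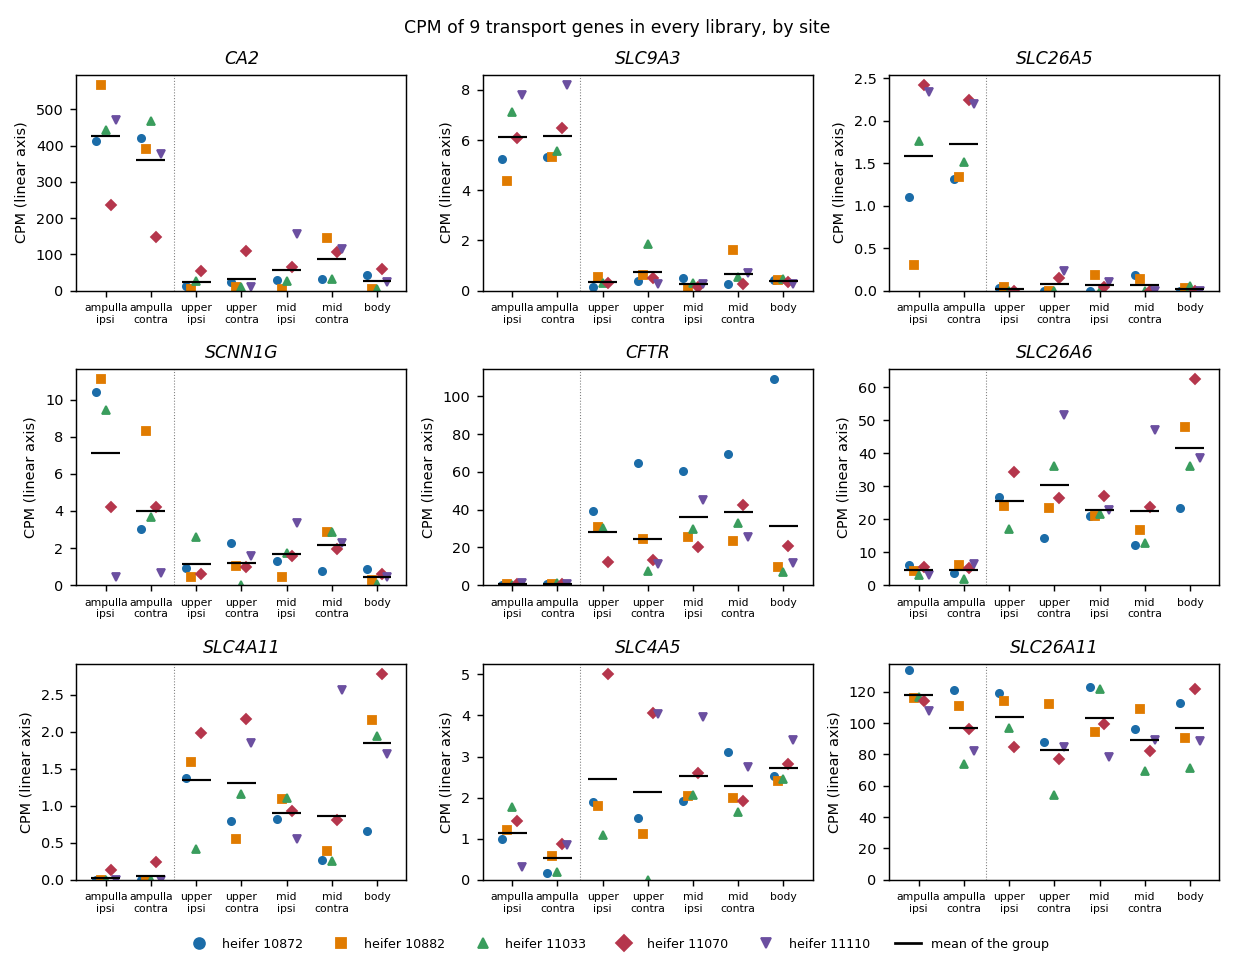
CPM of 9 genes in each of the 34 libraries on linear axes, by site group, with 1 symbol per heifer and a black line at the group mean; the dotted line parts ampulla from uterus. CA2, SLC9A3, SLC26A5 and SCNN1G stand higher in the ampulla groups, CFTR, SLC26A6, SLC4A11 and SLC4A5 higher in the uterine groups, and SLC26A11 is nearly level.

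Genes that work with these transporters also went both ways. The list held 93 regulators, pumps and further channels, of which 75 had a feature and 51 were tested. In the ampulla 18 rose and 18 fell, with a median of -0.27, so that 70.6% were called against the 64.9% of all features. The highest fold changes among the called genes were those of FOXI1, NHERF1, CA8 and ATP4A. FOXI1, a transcription factor of acid-base transporting cells in mouse kidney and inner ear, had 3.65 ± 2.21 CPM in the ampulla, against 0.0762 ± 0.0604 CPM in the endometrium (5.62 ± 0.41). NHERF1, a scaffold that tethers SLC9A3 and CFTR at the apical membrane, had 1025 ± 246 CPM in the ampulla, against 84.8 ± 27.9 CPM in the endometrium (3.67 ± 0.18). CA8, a carbonic anhydrase relative without catalytic activity, rose by 2.95 ± 0.22, and ATP4A, the proton pump subunit of the stomach, by 2.91 ± 0.35.

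Toward the endometrium, CA10, also without enzyme activity, stood at 0.198 ± 0.167 CPM in the ampulla, against 13.6 ± 4.34 CPM in the endometrium (-6.39 ± 0.39). The scaffold NHERF2 had a log2 fold change of -5.22, the proton channel HVCN1, with 4 ampulla counts, of -4.42, and ATP12A, a potassium-proton pump, of -4.07. The edgeR adjusted p of these 8 genes was at most 1.34e-05. Of 13 tested subunits of the vacuolar proton pump, 7 rose, 3 fell and 3 were not called. Of all features, 64.9% were called in this comparison, 29.4% higher and 35.6% lower. ATP6V1B1 was among those that rose, with 84.5 ± 71.5 CPM in the ampulla, against 16.3 ± 6.83 CPM in the endometrium (2.34 ± 0.29, adjusted p 2.90e-08), and ATP6V0D1 among those that fell, at 179 ± 14.1 and 367 ± 90.2 CPM (-1.01 ± 0.15, adjusted p 9.26e-07). ATP6V1B1 and ATP6V0D1 were picked as examples after their values were seen. ADCY10, the soluble adenylyl cyclase that senses bicarbonate, was not called at -0.52 ± 0.33 (adjusted p 0.169).

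Within the uterus the 3 regions were compared next, with both sides of a horn averaged. Only SLC26A6 was called, lower in the mid horn than in the body. Between mid horn and body 1 of 21 genes passed, against 4.45% of all features, 0.528% higher and 3.92% lower in the mid horn. SLC26A6 had 20.9, 21.0, 21.5, 27.0 and 22.8 CPM in the ipsilateral mid horn and 12.0, 16.7, 12.9, 23.6 and 47.1 CPM in the contralateral mid horn of heifers 10872, 10882, 11033, 11070 and 11110, against 23.3, 47.9, 36.1, 62.4 and 38.5 CPM in their uterine bodies. After averaging sides, the mid horn was lower in 5 of 5 heifers, but the contralateral mid horn of heifer 11110 lay above its body. The log2 fold change was -0.92 ± 0.26 (edgeR adjusted p 0.0444). The call was lost without the heifer term (adjusted p 0.156), without heifer 10882 (0.233), 11033 (0.367) or 11070 (0.154) and without the contralateral mid horn library of heifer 10882 (0.0717), and adjusted p over 12 alternatives ran from 0.0088 to 0.367.

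SLC4A3 came near the threshold in the same comparison, at 0.343 ± 0.329 CPM in the mid horn and 1.37 ± 0.723 CPM in the body (-2.38 ± 0.72, edgeR adjusted p 0.0528), and passed it with DESeq2 (-2.60, adjusted p 0.0166), among other alternatives. SCNN1G had 1.91 ± 0.679 CPM in the mid horn and 0.436 ± 0.305 CPM in the body, higher in 5 of 5 heifers (2.11 ± 0.71, adjusted p 0.0664 with edgeR and 0.016 with DESeq2). CA2 stood at 71.4 ± 43.6 CPM in the mid horn and 27.0 ± 24.1 CPM in the body (1.54 ± 0.73, adjusted p 0.169). Without the contralateral mid horn library of heifer 10882 the CA2 mean of the mid horn was 57.3 ± 52.4 CPM and the difference 1.16 ± 0.67 (adjusted p 0.275). Cell type markers also differed between these regions. Of 8 general epithelial markers 3 were called higher in the mid horn than in the body (median log2 of the list 0.81), as was 1 of 5 oviduct secretory markers (2.14), and 1 of 7 smooth muscle markers was lower (-0.17). Without the doubted library of heifer 10882 these medians were 0.67, 0.62 and -0.16, with 0 markers called, while 6, 2 and 1 had an unadjusted p under 0.05 (edgeR; DESeq2 was not run on this subset). Their part in the differences of the transport genes was not tested. CFTR was called between mid horn and body only without heifer 10872, at 1.28 (adjusted p 0.036), against 0.68 ± 0.44 with all heifers.

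No gene of the 21 was called between upper and mid horn or between upper horn and body with edgeR, where 0.0174% (0.0116% higher, 0.0058% lower) and 0.0232% (0.0058% higher, 0.0174% lower) of all features were called. The share of all features at an unadjusted edgeR p under 0.05 is not given here, so counts at that threshold have no background. Between mid horn and body 7 of the 21 genes met it. At an unadjusted p under 0.05 there was 1 in each comparison with the upper horn. DESeq2 called 0 in each of these, with 1 adjusted p missing between upper and mid horn. Between upper and mid horn it was CA2, at 26.8 ± 30.4 CPM in the upper horn and 71.4 ± 43.6 CPM in the mid horn, lower in 5 of 5 heifers (-1.48 ± 0.61, edgeR adjusted p 0.787), and it was called without the filter on low counts. Without the doubted library of heifer 10882 the upper horn was lower in 4 of 5 heifers (-1.06 ± 0.57, adjusted p 0.865), as that heifer then had 7.22 CPM in the upper horn and 5.14 CPM in the mid horn. Between upper horn and body it was SLC26A1, at 2.36 ± 1.0 and 5.55 ± 4.92 CPM (-1.43 ± 0.60, adjusted p 0.428), where the body of heifer 11033 alone held 14.3 CPM.

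Spread between heifers differed by gene. Over the heifers' endometrial means the coefficient of variation was 79.4% for CFTR, 61.5% for SCNN1B and 56.6% for CA2, against 28.3% for SLC26A6 and 12.1% for SLC26A11. The CA2 value includes the doubted contralateral mid horn library of heifer 10882, and no coefficient was computed without that library. Leaving it out, heifer 10882 had 7.22, 5.14 and 4.12 CPM of CA2 in the upper horn, mid horn and body. Heifer 10872 had the highest CFTR level of all heifers in each of the 5 uterine sites, with 39.2, 64.7, 60.3, 69.5 and 109 CPM in the ipsilateral and contralateral upper horn, the ipsilateral and contralateral mid horn and the body. The next highest heifer had 30.8, 24.2, 45.0, 42.3 and 20.5 CPM at these sites. Of all features tested, 0.992% were highest in heifer 10872 at all 5 sites, with 4 heifers compared in the ipsilateral upper horn. Heifer 10872 was singled out after the values were seen, and features with another heifer highest throughout were not counted. In the ampulla the same heifer held 0.0525 and 0.523 CPM on the ipsilateral and contralateral side. CA2 had no such order, with heifer 11070 highest at 3 of 5 uterine sites and heifer 10882 lowest at 3. Heifer 10882 was highest at 1 site, the contralateral mid horn, by its doubted library. Without heifer 10872 CFTR remained called between ampulla and endometrium, at -5.04 (edgeR adjusted p 2.20e-12).

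**Figure D3:**
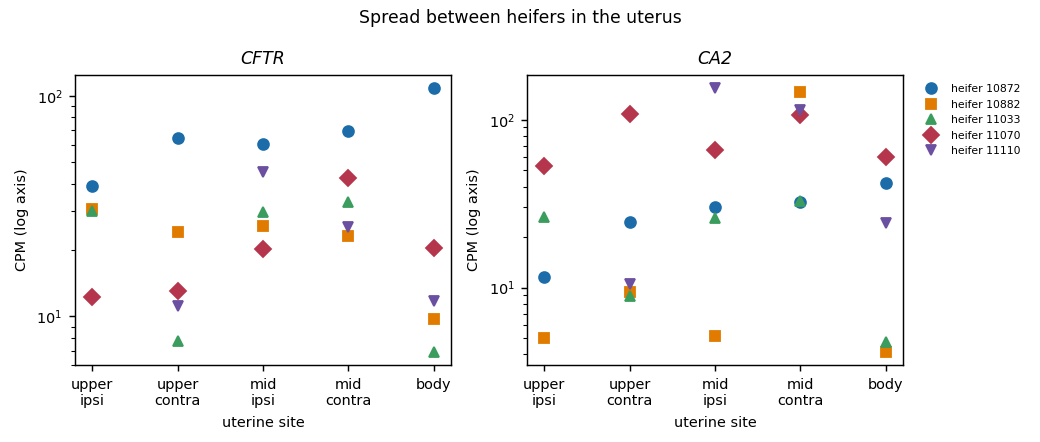
CPM of CFTR and CA2 on log axes in the 24 uterine libraries, by site and heifer. Heifer 10872 is the top CFTR point at all 5 sites, while the CA2 points spread from 4.12 to 155 CPM with the order of heifers changing between sites.

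The last comparisons asked whether the side of ovulation matters, within heifers. With edgeR no gene of the 21 was called in the ampulla, the upper horn or the mid horn, where 0.0174%, 0.0058% and 0.0% of all features were called. At an unadjusted p under 0.05 there were 3, 2 and 1 of the 21. DESeq2 also called 0 at each site, but gave no adjusted p for 20, 2 and 5 of the 21. The side difference in the ampulla minus that in the uterine horn gave 0 calls as well, with 3 genes at an unadjusted p under 0.05, 0 with DESeq2 and 0.0% of all features called. For the side comparisons too, the share of all features at an unadjusted p under 0.05 is not given, so these counts have no background.

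SLC26A11 and SLC4A5 were each higher on the ipsilateral side in 12 of 14 within-heifer pairs, and SLC9A3 was lower there in 12 of 14. Of all features tested, 2.39% were higher on the ipsilateral side in at least 12 pairs and 1.86% lower. Without the 3 doubted libraries 11 pairs were left, of which SLC26A11 was higher in 10, SLC4A5 higher in 9 and SLC9A3 lower in 9. These patterns over pairs were noticed after the values were seen. The number of features detected was higher on the ipsilateral side in 9 of the 14 pairs, and its part in them was not tested.

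SLC26A11 had 134, 116, 117, 114 and 108 CPM in the ipsilateral ampulla, against 121, 111, 73.6, 96.1 and 82.2 CPM in the contralateral ampulla of heifers 10872, 10882, 11033, 11070 and 11110. The ipsilateral side was higher in 5 of 5 heifers there and in 4 of 4 in the upper horn, but in 3 of 5 in the mid horn. The log2 difference was 0.30 ± 0.17 in the ampulla, 0.30 ± 0.18 in the upper horn and 0.23 ± 0.17 in the mid horn (edgeR adjusted p 0.692, 0.756 and 1.0). SLC4A5, the sodium-bicarbonate cotransporter, had 0.998, 1.2, 1.76, 1.43 and 0.308 CPM in the ipsilateral ampulla, against 0.157, 0.570, 0.197, 0.878 and 0.840 CPM in the contralateral ampulla of the same heifers. It was higher in 4 of 5 there (1.36 ± 0.58, edgeR adjusted p 0.637), with heifer 11110 the exception. For SLC9A3 the log2 difference was -0.02 ± 0.42 in the ampulla, -1.06 ± 0.55 in the upper horn and -1.29 ± 0.52 in the mid horn (edgeR adjusted p 1.0, 0.737 and 1.0), at uterine levels of at most 1.84 CPM. That highest level was in the doubted contralateral upper horn of heifer 11033, against 0.309 CPM on its ipsilateral side. In the upper horn the ipsilateral side was lower in 4 of 4 heifers, and the difference without the doubted library is not given here. In the mid horn the oviduct secretory markers had a median log2 side difference of -2.57 and the ciliated cell markers of -0.59, with 5 of 5 and 3 of 8 at an unadjusted p under 0.05 and 0 called by edgeR. Without the contralateral mid horn library of heifer 10882 the SLC9A3 difference in the mid horn was -0.72 ± 0.51 (adjusted p 1.0), and the marker medians were -1.28 and -0.29. The part of these markers in the SLC9A3 difference was not tested. SLC4A3 had counts in 4 of 5 ipsilateral ampulla libraries and 0 in all 5 contralateral ones, but these were 11 counts in all (adjusted p 0.626).

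**Figure D4:**
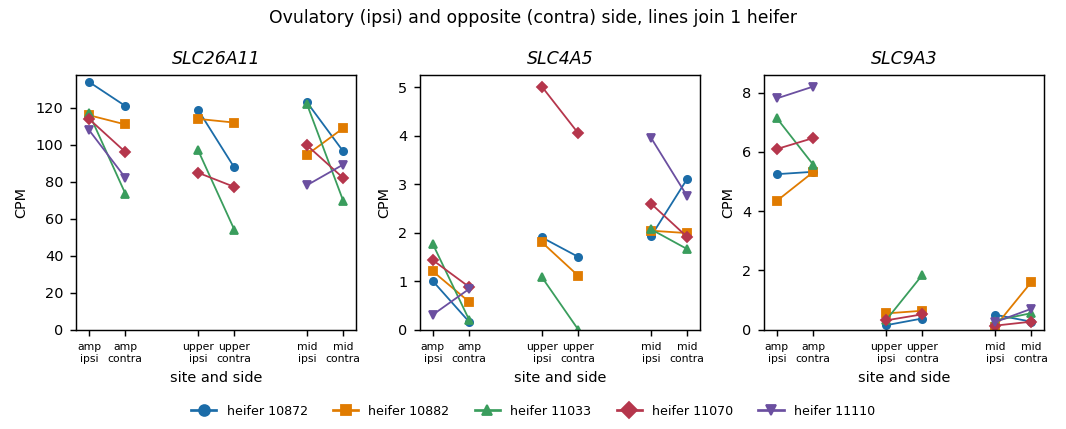
CPM of SLC26A11, SLC4A5 and SLC9A3 on the ovulatory and the opposite side of the ampulla, upper horn and mid horn, with a line joining both sides of 1 heifer. The ipsilateral end is the higher one in 12 of the 14 lines for SLC26A11 and for SLC4A5, and the lower one in 12 of the 14 for SLC9A3.

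Gene order and overlaps, which played no part in the choice of genes, were read from the RefSeq annotation. Neighbours were CA2 and CA3, CLCA1 and CLCA2, SCNN1B and SCNN1G, and SLC9A2 and SLC9A4, each with 0 protein-coding genes between them, and SLC26A3 and SLC26A4 with 1. In none of these pairs were both genes called between ampulla and endometrium, and in 2 of the 5 pairs, CLCA1 with CLCA2 and SCNN1B with SCNN1G, both were tested. The spans of CLCA1 and CLCA2 overlap ODF2L, that of SLC26A1 overlaps IDUA and that of SLC4A5 overlaps MTHFD2. Only whole gene spans were compared, and whether exons overlap was not checked. As the strand setting of the counting is not given in the sources used here, reads from any shared exon stretch cannot be told apart. How reads that match both CLCA genes were counted is not given either, so their split is uncertain.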

How the data were processed

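The authors deposited 1 table of read counts per annotated feature, whole numbers without normalisation, for 34 libraries. Per the submitters' processing notes, cutadapt, STAR 2.7.9a, HTSeq and SAMtools were used, with no roles given. The genome build, annotation and strand setting used were not given in these sources. A stranded kit was used, per the labels' protocols. Of 38568 features, 26362 were matched by accession or symbol to the RefSeq gene table of ARS-UCD2.0, used for names and gene order only, and held 95.3% of counts.

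All contrasts were fitted in R 4.3.3 with edgeR 4.0.16 (TMM scaling, filterByExpr by site group, robust quasi-likelihood F test, site group and heifer as terms, all libraries in 1 fit), with Benjamini-Hochberg adjustment over 17241 features in each of 8 contrasts. CPM are counts over TMM-scaled totals, and regional means average a heifer's libraries first. SE belong to edgeR's log2 fold change. The script was tested on simulated data. Heifers pair the sites by the labels, and deviations from group means correlated with a median of 0.207 over 99 pairs of libraries within heifers and -0.0539 over 396 pairs between them. The p-values rest on the spread of libraries left after the site group and heifer terms. The several libraries of a heifer count separately in that spread, so it is not the spread between heifers alone.

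Genes called in a contrast, and a fixed set of transporters whatever their result, are named with values. The genes, lists, naming rule and 3 doubted libraries (contralateral mid horn of heifer 10882, upper horn of 11033, ampulla of 11070) were chosen with earlier results of these data known. Alternatives were DESeq2 1.42.0 size factors and its Wald test, no filter, no heifer term, summed features, and leaving out heifers or libraries. Some genes of the families are included in the counts but not reported here.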

Additional observations from a re-analysis of the deposited data

Results flagged for a closer look

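Single libraries that stood far from the others of their site were looked for by Dixon's test in 134 combinations of a tested gene and a site with a mean of at least 3 counts. The test found 10, and chance flags about 1 in 20 groups if the values are normally distributed. It was run on linear CPM, and whether these are normally distributed was not checked. CFTR in heifer 10872 stood out in the uterine body at 109 CPM, next to 20.5 in the nearest heifer, and in the contralateral upper horn at 64.7 CPM, next to 24.2. CA2 in heifer 11070 was the highest of the contralateral upper horn at 108 CPM, next to 24.6, and the lowest of the contralateral ampulla at 147 CPM, next to 377. SLC26A1 in the body of heifer 11033 was at 14.3 CPM, next to 3.98. In the contralateral upper horn of heifer 11033, the smallest library, SCNN1B was at 3.48 CPM, next to 1.39, and SLC9A3 at 1.84 CPM, next to 0.636 from 19 counts. CA4 in the contralateral upper horn of heifer 11110 was at 1.07 CPM, from 23 counts, and SLC4A11 in its contralateral mid horn at 2.57 CPM, next to 0.800. SLC12A9 in the ipsilateral upper horn of heifer 11033 was the lowest of 4 libraries at 49.9 CPM, next to 76.9.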

How the results depend on the processing

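Of 263 values of single genes under alternatives, 246 kept direction and side of the threshold, 12 passed it only under the alternative, 5 lost it and 0 changed sign. All 5 losses were SLC26A6 between mid horn and body. Between ampulla and endometrium no gene that was tested lost its call, but CA4 dropped below the filter without heifer 11110, which left 8 of 20 genes lower, and SLC26A3, SLC9A2 and SCNN1B were among those gained under some settings. The fold of SLC4A11 moved by over 1.5 times without heifer 11070 (-7.62) and without the 3 doubted libraries (-6.47), and that of CA4 with DESeq2 (-4.70) and with summed features (-6.38). Counts between mid horn and body were the least stable. In place of 1 gene lower and 0 higher in the mid horn, DESeq2 size factors gave 2 lower, the DESeq2 test 3 lower and 1 higher, no filter 3 lower and 2 higher, and summed features 2 lower. The share of all features called between mid horn and body under each alternative is not given here. The counts therefore cannot be read as a result about these genes. Leaving out 1 heifer or the contralateral mid horn library of heifer 10882 gave 0 to 2 lower and 0 to 1 higher. Without the replicate block for heifer the count was 0 lower, and it changed no other call. Without the filter 1 gene, CA2, was called between upper and mid horn. The cause of these shifts was not tested. The 19 genes below the filter had too few counts to test, and whether depth or the counting of shared reads set this was not tested.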
